A study of Homo sapiens with 24 samples.

Results

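The genes described here are the molecular chaperones of the cytosol and the mitochondria, together with their partner proteins and the factors that switch their genes on. The set was a list of 44 named heat-shock, co-chaperone and chaperonin genes, matched by symbol to the Ensembl gene identifiers of the count files, and all 44 were found among 60675 genes. The study sequenced RNA from MDA-MB-231 and MDA-MB-436, established human triple-negative breast cancer cell lines, which lack the estrogen and progesterone receptors and HER2 amplification. In each line, cells expressing an shRNA (a short hairpin RNA that silences a transcript) against MDM2 were set against cells expressing a non-targeting hairpin. Cells given YX-2-30, an MDM2 PROTAC (a molecule that tethers its target to a ubiquitin ligase, which leads to degradation by the proteasome), were set against cells given the DMSO vehicle. MDM2 is itself a ubiquitin ligase, known for marking p53 for degradation. The 2 lines and 4 conditions made 8 groups of 3 libraries, 24 in all. All were grown in DMEM with 10% FBS, and the hairpin sequences, PROTAC dose and duration are not given in the sources used here. The labels call the 3 libraries of a group replicates without stating whether cultures were separate, and the p-values measure only the spread between them, which may be technical.

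Chaperones bind unfolded or partly folded proteins and keep them from aggregating. J-domain proteins deliver clients to HSP70 and stimulate its ATPase, HSP110 proteins and BAG proteins exchange its nucleotide, and HSP90 with its partners finishes the folding of kinases, steroid receptors and other clients. The barrel-shaped chaperonin TRiC/CCT folds actin and tubulin in the cytosol, and HSPD1 (HSP60) with its lid HSPE1 (HSP10) does similar work in mitochondria. The transcription factor HSF1 binds heat shock elements, which are inverted repeats of GAA, in the promoters of many of these genes. Tumour cells are known to lean on HSF1 and HSP90 to keep mutated and overproduced proteins folded.

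To show what the promoters of these genes look like, 250 bases before a single RefSeq start site per gene (build GRCh38.p14) were searched for such repeats. Any other start sites of a gene were not searched. The 3-unit motif was GAANNTTCNNGAA or TTCNNGAANNTTC, where N is any base, and the 2-unit motif was GAANNTTC or TTCNNGAA. Each pair covers both strands, and every 3-unit match also holds 2-unit matches. RefSeq promoters were at hand for 37 of the 44 genes, and those of HSF1, HSPA14, ST13, STUB1, FKBP4, CRYAB and CCT6A were not used here. The 3-unit motif lay in 3 of the 37 (8.11%), HSPA8, DNAJB6 and CHORDC1, against 120 of 27305 promoters in the table (0.439%). The 2-unit motif lay in 9 of the 37 (24.3%) against 3208 of all promoters (11.7%). Of the 27 promoters whose genes fell in both MDA-MB-436 comparisons described below, 3 held the 3-unit and 8 the 2-unit motif. Among the other 10, the 2-unit motif was found in that of HSPB8. Shown are the 3-unit matches of the constitutive HSP70 gene HSPA8, the co-chaperone CHORDC1 and the J-domain gene DNAJB6, and the 2-unit matches of the nearly identical stress-inducible HSP70 genes HSPA1A and HSPA1B and of HSPB8, the gene with the steepest rise in both lines. Letters run 5′ to 3′ along the gene's strand, with the motif match in capitals. For CHORDC1 the capitals merge overlapping 3-unit matches, 23 letters in all, and the distance given is that of the first.
HSPA8, 230 bases before the start: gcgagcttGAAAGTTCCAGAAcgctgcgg
HSPA8, 55 bases before the start: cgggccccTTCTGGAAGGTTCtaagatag
CHORDC1, 60 bases before the start: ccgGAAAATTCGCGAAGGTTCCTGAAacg
DNAJB6, 131 bases before the start: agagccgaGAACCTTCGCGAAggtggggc
HSPA1A, 106 bases before the start: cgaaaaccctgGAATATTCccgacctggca
HSPA1B, 105 bases before the start: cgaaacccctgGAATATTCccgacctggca
HSPB8, 88 bases before the start: tcatcacctccGAATATTCctgtgacagga
In order, these stretches are chr11:123062346-123062374 and chr11:123062171-123062199 on the minus strand, chr11:90223084-90223112 on the minus strand, and, on the plus strand, chr7:157336865-157336893, chr6:31815426-31815455, chr6:31827622-31827651 and chr12:119178832-119178861. The HSPA1A and HSPA1B stretches carry the same 2-unit match, and HSPB8 carries the same 8 letters. A match describes the letters and is not evidence of binding.

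Libraries held 33.4 M to 174.7 M counts (M is 1000000), with a median of 64.0 M. MDM2 RNA, the target of the hairpin, did not fall under the MDM2 shRNA label. In CPM (counts per 1000000, scaled within the line), it stood in MDA-MB-231 at 19.6, 22.4 and 11.2 CPM with the non-targeting shRNA and 24.3, 23.3 and 30.3 CPM with the MDM2 shRNA label (log2 change 0.55 ± 0.24, adjusted p = 0.137), and in MDA-MB-436 at 22.0, 30.6 and 23.8 CPM with the non-targeting shRNA and 14.8, 28.6 and 27.5 CPM with the MDM2 shRNA label (log2 change -0.11 ± 0.22, adjusted p = 0.78). Those libraries are therefore called the libraries labelled MDM2 shRNA. A degrader acts on the protein, so MDM2 RNA does not check the PROTAC label. Few genes separated the treated groups of a line: by edgeR's quasi-likelihood test 1 gene in MDA-MB-436 and 3 in MDA-MB-231 differed between PROTAC libraries and those labelled MDM2 shRNA, none of them a chaperone (1051 and 1113 genes at an unadjusted p under 0.05, 39 and 48 genes by DESeq2). Between DMSO and non-targeting controls, which are pooled for the control levels below, 4 genes differed in MDA-MB-436 and 0 in MDA-MB-231 by the same test (137 and 40 genes by DESeq2). No chaperone was among them by either tool. At an unadjusted p under 0.05 the controls differed in 2579 genes in MDA-MB-436 (11.4% of those tested, 6 of 43 chaperones among them) and in 903 in MDA-MB-231 (4.37%, 1 chaperone). In MDA-MB-436 PROTAC replicate 3, the shallowest library, stood apart, with a correlation of 0.933 to 0.945 with its own group. Chaperone calls were also run without it, but marker genes and the further pathway genes below were not.

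Marker genes moved in both lines. Summed epithelial markers (7 of 7 with counts) ran in MDA-MB-436 from 998 to 1128 CPM with the non-targeting shRNA and from 548 to 608 CPM with the MDM2 shRNA label, and from 867 to 923 CPM with DMSO and 481 to 576 CPM with the PROTAC. That sum is mostly the keratins KRT8 and KRT18, which fell by 1.02 and 0.81 on the log2 scale with the MDM2 shRNA label and by 0.91 and 0.73 with the PROTAC. Other epithelial markers, at far lower levels, rose there: EPCAM by 0.58 and 0.60 and KRT7 by 1.49 and 1.56 in the MDM2 shRNA and PROTAC comparisons, and KRT19 by 2.04 and CDH1 by 3.48 with the MDM2 shRNA label. With the PROTAC, KRT19 and CDH1 had log2 changes of -0.33 and -2.28 and were not called. In MDA-MB-231 the epithelial sum ran from 1199 to 1237 CPM and from 1079 to 1102 CPM in the hairpin groups, and from 1148 to 1178 CPM and from 1074 to 1108 CPM in the DMSO and PROTAC groups. Of the epithelial markers, KRT7 fell there in both comparisons (log2 changes -0.63 and -0.66) and KRT19 with the PROTAC (-0.14). The others were not called there. Summed mesenchymal markers (4 of 4 with counts) were lower in the treated groups of both lines. They ran in MDA-MB-231 from 7128 to 8685 CPM with the non-targeting shRNA and 4502 to 4733 CPM with the MDM2 shRNA label, and from 7074 to 7231 CPM with DMSO and 4416 to 4705 CPM with the PROTAC. In MDA-MB-436 they ran from 1826 to 1953 CPM and from 1359.7 to 1386 CPM in the hairpin groups, and from 2038 to 2101 CPM and from 1283 to 1396 CPM in the DMSO and PROTAC groups. Of these markers, VIM and AXL fell in all 4 comparisons. CD44 was called lower in MDA-MB-436 only, and ZEB1 only with the PROTAC in MDA-MB-231. Of the markers of other cell types, the T cell marker CD3E, the fibroblast markers DCN and LUM and the endothelial marker CDH5 were under 0.1 CPM in all groups, while others on those lists had reads. The collagen gene COL1A1 rose in MDA-MB-231 from a mean of 15.4 to 30.3 CPM with the MDM2 shRNA label and from 16.5 to 29 CPM with the PROTAC. The macrophage marker CD68 had group means from 17 to 40.1 CPM and rose with the PROTAC in MDA-MB-436 (log2 change 0.65 ± 0.16, adjusted p = 0.00818). In that group PROTAC replicate 3 stood highest, with CD68 at 22.8, 22.6 and 34.9 CPM and KRT7 at 22.7, 26.2 and 40.9 CPM. Neither gene was refitted without that library. The leukocyte marker PTPRC fell in MDA-MB-231 (4.86 to 3.27 CPM with the MDM2 shRNA label, 4.75 to 3.12 CPM with the PROTAC) and was under 0.1 CPM in MDA-MB-436. PECAM1, an endothelial marker, had means from 0.219 to 1.5 CPM. The part of these marker shifts in the chaperone results was not tested.

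In MDA-MB-436, chaperone RNA was broadly lower after both treatments, while in MDA-MB-231 it was not. The 44 genes made up 2.34%, 2.32% and 2.38% of all counts in the 3 MDA-MB-436 libraries with the non-targeting shRNA, and 1.46%, 1.52% and 1.44% in those labelled MDM2 shRNA. With DMSO they made up 2.20%, 2.27% and 2.22%, and with the PROTAC 1.42%, 1.48% and 1.47%. The treated and control libraries of that line did not overlap. In MDA-MB-231 all 12 libraries lay between 1.71% and 1.87%. The libraries are bulk RNA, so fewer cells of a kind and less RNA per cell cannot be told apart.

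**Figure D1:**
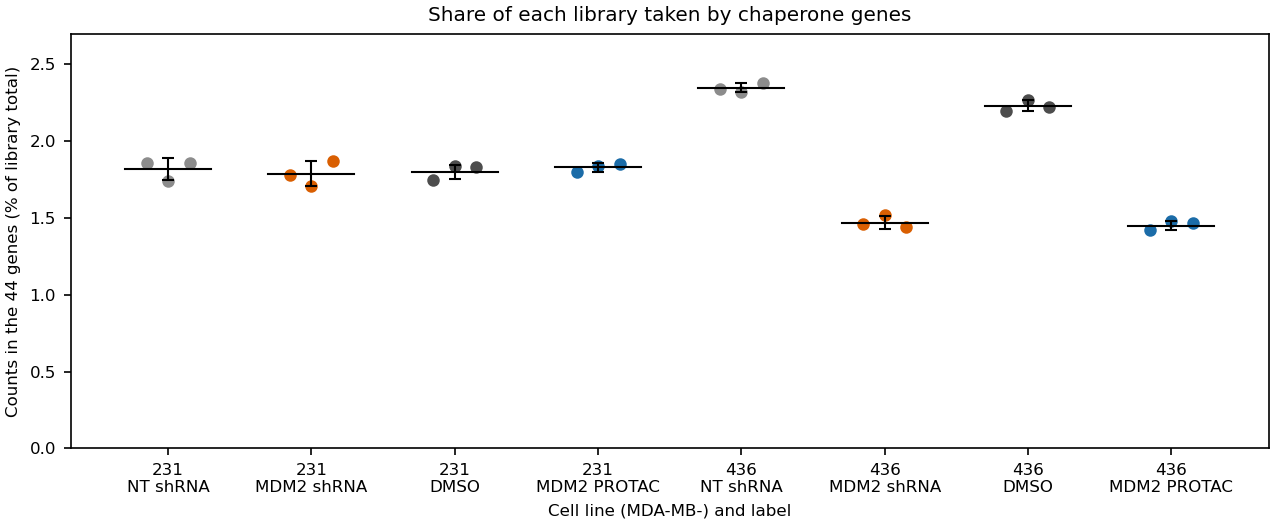
Share of each library's counts that fell on the 44 chaperone genes, in percent, for the 8 groups of 3 libraries; points are libraries, lines are group means and bars are ± 1 SD. The 6 treated MDA-MB-436 libraries lie between 1.42% and 1.52%, below their 6 controls, while all 12 MDA-MB-231 libraries lie between 1.71% and 1.87%.

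Of the 44 genes, 43 passed the filter on low counts in both lines, and CRYAB did not. Changes are log2 ratios of scaled counts ± SE from edgeR's quasi-likelihood test with Benjamini-Hochberg adjustment over all genes, called at an adjusted p under 0.05, with n = 3 libraries per group throughout. In MDA-MB-436 with the MDM2 shRNA label, 36 of 43 were called, 33 lower and 3 higher, where 30.4% of all 22663 genes tested were called, 14.4% lower and 16% higher. With the PROTAC, 33 were called, 30 lower and 3 higher, where 32.4% of all genes were called, 15.1% lower and 17.3% higher. The median change was -0.68 and -0.51, against 0.040 and 0.043 over all genes. A called fall of at least 1 on the log2 scale was seen for 10 and 7 of the 43, where 2.25% and 2.80% of all genes did. Treated and control libraries did not overlap for 38 and 33 of the 43, where 52.0% and 42.3% of all genes did not overlap. All 30 genes that fell with the PROTAC also fell with the MDM2 shRNA label. The share of all genes that fell in both comparisons is not reported here. Without PROTAC replicate 3, 29 fell and 2 rose.

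In MDA-MB-231 with the MDM2 shRNA label, 11 of 43 were called, where 22.7% of all 20675 genes tested were. Of these 7 rose and 4 fell, where 11.1% and 11.6% of all genes did. With the PROTAC, 10 were called, against 22.6% of all genes, and 7 rose and 3 fell, against 11.1% and 11.5%. These shares are near the background, and the medians were -0.03 and 0.03. Libraries of the 2 groups did not overlap for 19 and 14 of the 43, against 39.0% and 39.1% of all genes. No chaperone fell there by at least 1 on the log2 scale with either agent, where 2.57% of all genes did with each. Without non-targeting replicate 1, 6 genes in place of 11 were called with the MDM2 shRNA label, since HSPA14, HSPA4L, DNAJA1, DNAJA2 and STIP1 missed the threshold. Scaling bears on these counts. With library totals as the sole scaling, the median of all genes moved to 0.11 and 0.08 in MDA-MB-231 and to 0.22 and 0.21 in MDA-MB-436. The share of called genes that rose then went from 48.8% to 68.0% and from 49.1% to 65.6% in MDA-MB-231, and from 52.5% to 72.8% and from 53.4% to 70.9% in MDA-MB-436 (MDM2 shRNA label and PROTAC). Of the 43 chaperones, 10 then rose and 3 fell, and 12 rose and 2 fell, in MDA-MB-231, and 4 rose and 26 fell, and 4 rose and 22 fell, in MDA-MB-436. Of all 20675 genes in MDA-MB-231, 3564 then rose and 1674 fell, and 3321 rose and 1745 fell. Of all 22663 genes in MDA-MB-436, 5196 then rose and 1937 fell, and 5371 rose and 2203 fell. The calls lost in MDA-MB-436 under that scaling were those of DNAJC7, UNC45A, HSPA9, TRAP1 and CCT2 in both comparisons, PTGES3 and CCT7 with the MDM2 shRNA label, and DNAJB4, HSPB1 and TCP1 with the PROTAC.

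**Figure D2:**
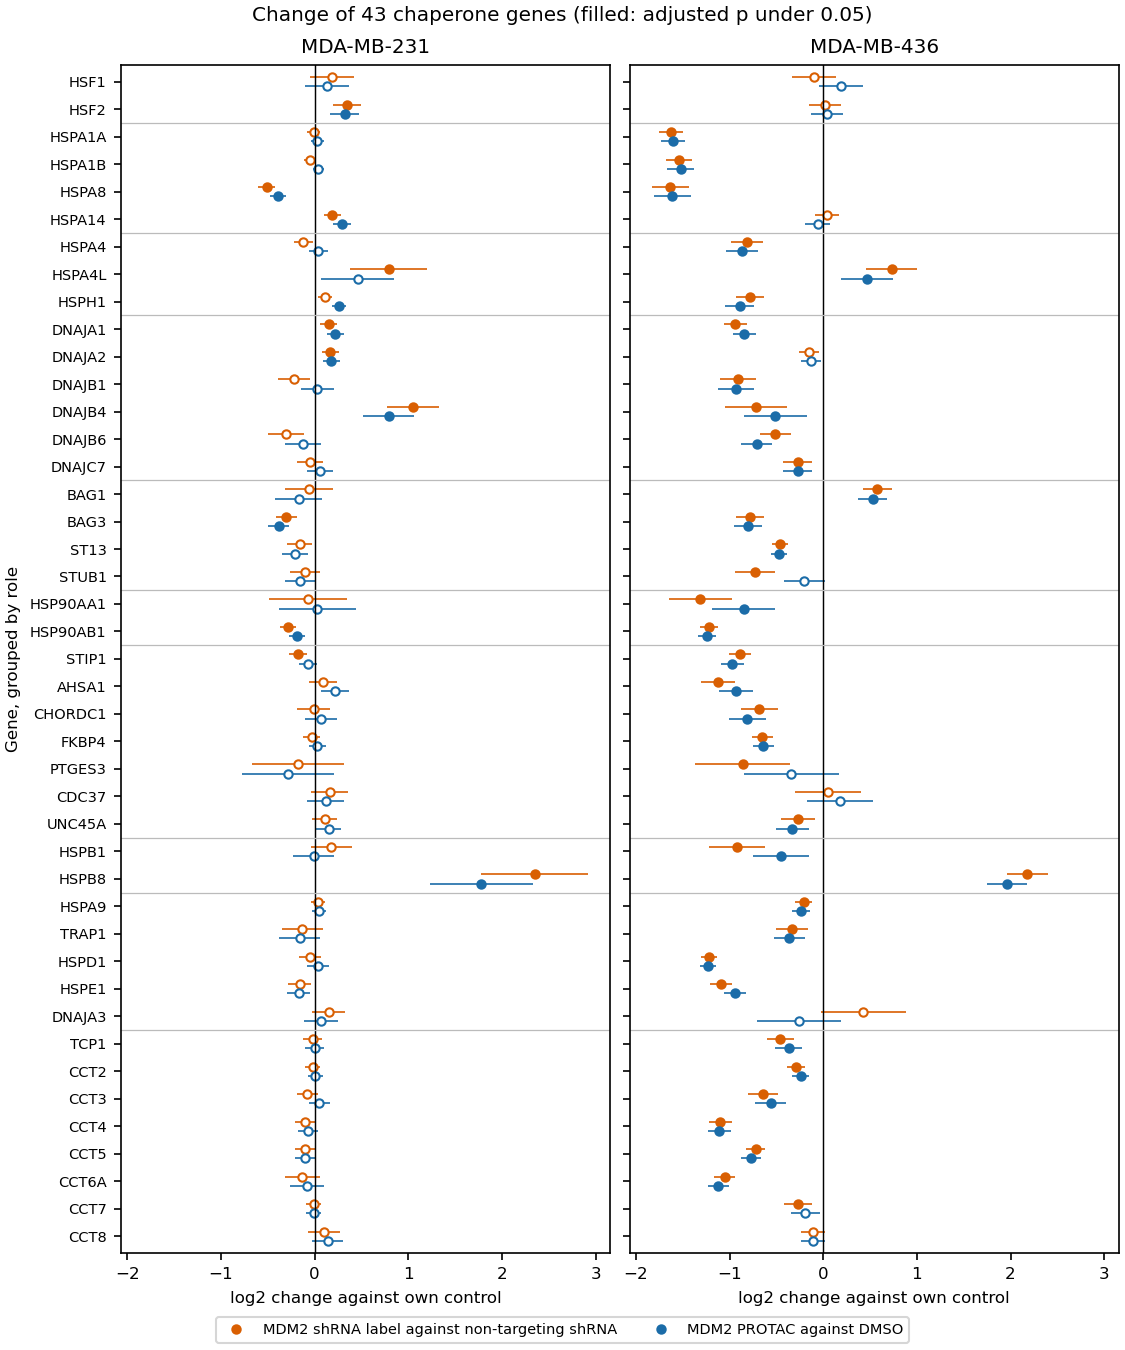
Log2 change of each of the 43 tested chaperone genes in the 4 treatment comparisons, grouped by role; points are estimates, bars are 95% intervals, and filled points passed the test. Most MDA-MB-436 points lie below 0, down to -1.63 for HSPA8, and HSPB8 lies far above 0 in all 4.

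Of the 2 heat-shock factors, HSF2 rose in MDA-MB-231 and HSF1 was not called in either line. HSF1, the main activator of the heat-shock response, had log2 changes of 0.19, 0.13, -0.10 and 0.19, given here and below in the order MDM2 shRNA label and PROTAC in MDA-MB-231, then the same in MDA-MB-436. Its transcript level does not show whether the protein was active. HSF2, a related factor active in development and able to pair with HSF1, stood in MDA-MB-231 at 17.1, 18.3 and 16.9 CPM with the non-targeting shRNA and 22.8, 22.1 and 22.0 CPM with the MDM2 shRNA label (log2 change 0.35 ± 0.076, adjusted p = 0.00666), and at 19.2, 16.9 and 17.1 CPM with DMSO and 23.5, 20.7 and 22.3 CPM with the PROTAC (log2 change 0.32 ± 0.077, adjusted p = 0.011). Groups did not overlap in either pair, though without DMSO replicate 2 the PROTAC call missed the threshold (adjusted p = 0.0543). In MDA-MB-436, HSF2 was not called, with changes of 0.02 and 0.04.

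Among the HSP70 genes, the stress-inducible HSPA1A and HSPA1B and the constitutive HSPA8 all fell in MDA-MB-436, by the largest amounts of the HSP70 set. HSPA8 (ENSG00000109971, chromosome 11, 123057489 to 123063230, minus strand) is the abundant housekeeping HSP70. In MDA-MB-436 it stood at 1943, 1947 and 1988 CPM with the non-targeting shRNA and 622, 612 and 666 CPM with the MDM2 shRNA label, a change to 0.323 times the control (log2 change -1.63 ± 0.1, adjusted p = 5.82e-07). In the degrader pair it stood at 1773, 1882 and 1832 CPM with DMSO and 517, 565 and 717 CPM with the PROTAC (log2 change -1.61 ± 0.099, adjusted p = 5.98e-07). Every treated library lay below every control library. In MDA-MB-231 HSPA8 also fell, but less. It stood there at 1977, 1868 and 1974 CPM with the non-targeting shRNA and 1420.1, 1269.9 and 1385 CPM with the MDM2 shRNA label (log2 change -0.51 ± 0.046, adjusted p = 1.58e-05). In the degrader pair the values were 1923, 1821 and 1783 CPM with DMSO and 1437, 1373 and 1419.7 CPM with the PROTAC (log2 change -0.39 ± 0.046, adjusted p = 0.000126). The groups did not overlap there either.

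HSPA1A and HSPA1B lie side by side on chromosome 6 (31815464 to 31817946 and 31827735 to 31830255, plus strand) and encode the same inducible HSP70. HSPA1A stood in MDA-MB-436 at 386, 392 and 398 CPM with the non-targeting shRNA and 132, 128 and 123 CPM with the MDM2 shRNA label (log2 change -1.62 ± 0.065, adjusted p = 3.21e-08), and at 351, 365 and 346 CPM with DMSO and 118, 126 and 107 CPM with the PROTAC (log2 change -1.60 ± 0.065, adjusted p = 3.46e-08). HSPA1B stood at 409, 418 and 415 CPM with the non-targeting shRNA and 146, 145 and 137 CPM with the MDM2 shRNA label (log2 change -1.54 ± 0.073, adjusted p = 1.08e-07), and at 379, 385 and 366 CPM with DMSO and 137, 142 and 116 CPM with the PROTAC (log2 change -1.52 ± 0.073, adjusted p = 1.13e-07). All treated libraries were far below all controls for both genes. In MDA-MB-231, by contrast, HSPA1A stood at 193, 189 and 189.8 CPM with the non-targeting shRNA and 192, 186 and 192 CPM with the MDM2 shRNA label, and at 195, 184 and 188 CPM with DMSO and 193, 192 and 194 CPM with the PROTAC. HSPA1B stood at 316, 317 and 321 CPM with the non-targeting shRNA and 305, 311 and 308 CPM with the MDM2 shRNA label, and at 316, 307 and 312 CPM with DMSO and 319, 312 and 329 CPM with the PROTAC. Groups overlapped except for HSPA1B with the MDM2 shRNA label, and neither gene was called: changes ran from -0.05 to 0.04. Because 71.3% of the 50-base words of HSPA1A transcripts also occur in HSPA1B, reads could be split between them, and their separate levels are uncertain. Summed to a single feature, they had log2 changes of -0.03, 0.04, -1.58 and -1.55, with adjusted p = 4.97e-08 and 5.45e-08 for the MDA-MB-436 comparisons. HSPA14, a ribosome-linked HSP70, moved the other way and in the other line. It stood at 78.5, 79.3 and 80.1 CPM with the non-targeting shRNA and 88.7, 94.5 and 87.4 CPM with the MDM2 shRNA label in MDA-MB-231 (log2 change 0.19 ± 0.048, adjusted p = 0.0176), and at 76.0, 77.3 and 74.6 CPM with DMSO and 98.2, 89.7 and 89.8 CPM with the PROTAC (log2 change 0.29 ± 0.048, adjusted p = 0.00143). The first of these calls was lost without any 1 of 4 libraries (each non-targeting replicate and MDM2 shRNA replicate 2; adjusted p from 0.0564 to 0.078). In MDA-MB-436 HSPA14 was not called (0.04 and -0.06), and 15.9% of its 50-base words occur in a second gene entry of that name.

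**Figure D3:**
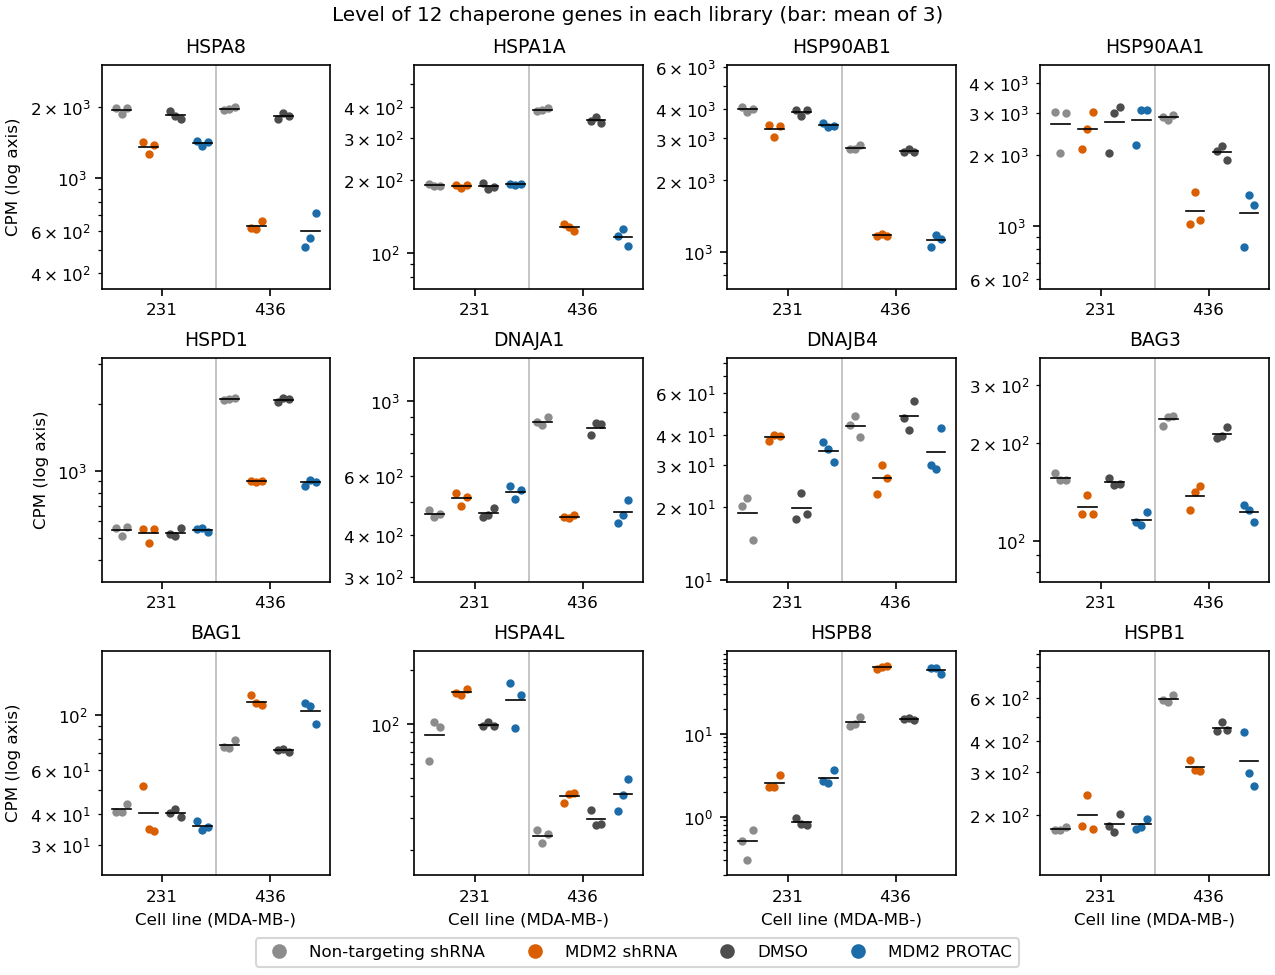
Level of 12 chaperone genes in each of the 24 libraries, in CPM on a log axis, by cell line and group; points are libraries and lines are means of 3. HSPA1A and HSPD1 are lower in the treated MDA-MB-436 libraries and were not called in MDA-MB-231, HSPA8 and HSP90AB1 are lower in both lines and more so in MDA-MB-436, and HSPB8 is higher in both.

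The 3 HSP110 genes, whose products exchange nucleotide on HSP70, split. HSPA4 and HSPH1 fell in MDA-MB-436, with log2 changes of -0.81 ± 0.088 and -0.87 ± 0.088 for HSPA4 and -0.78 ± 0.078 and -0.89 ± 0.078 for HSPH1, with adjusted p between 7.32e-06 and 3.67e-05. HSPH1 rose slightly in MDA-MB-231 with the PROTAC, standing at 234, 239 and 235 CPM with DMSO and 297, 281 and 270.5 CPM with the PROTAC (log2 change 0.26 ± 0.04, adjusted p = 0.000727). In the hairpin pair it stood at 245, 238 and 247 CPM with the non-targeting shRNA and 261, 260.4 and 269 CPM with the MDM2 shRNA label (log2 change 0.11 ± 0.04, adjusted p = 0.066). HSPA4L, a relative of HSPA4 best known from testis, rose in MDA-MB-436. It stood at 25.8, 21.7 and 24.4 CPM with the non-targeting shRNA and 36.6, 40.9 and 41.4 CPM with the MDM2 shRNA label (log2 change 0.73 ± 0.14, adjusted p = 0.00239), and at 33.3, 27.3 and 28.0 CPM with DMSO and 32.9, 40.3 and 49.7 CPM with the PROTAC (log2 change 0.47 ± 0.14, adjusted p = 0.0251). The PROTAC groups overlapped, and that call was lost without any 1 of 4 libraries (DMSO and PROTAC replicates 2 and 3; adjusted p from 0.0541 to 0.0851). In MDA-MB-231 HSPA4L stood at 62.5, 103 and 96.2 CPM with the non-targeting shRNA and 149, 146 and 158 CPM with the MDM2 shRNA label (log2 change 0.79 ± 0.21, adjusted p = 0.0174), a call lost without non-targeting replicate 1 or treated replicate 3 (adjusted p = 0.054 and 0.0512). In the degrader pair it stood at 97.2, 103 and 97.3 CPM with DMSO and 169.6, 95.2 and 146 CPM with the PROTAC (log2 change 0.46 ± 0.2, adjusted p = 0.138).

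Of the 6 J-domain genes, 5 fell in both MDA-MB-436 comparisons, and DNAJA2 was not called there. The set also held the 2 genes that rose in both MDA-MB-231 comparisons and fell in both MDA-MB-436 comparisons, DNAJA1 and DNAJB4. DNAJA1, an abundant partner of HSPA8, stood in MDA-MB-436 at 865, 847 and 895 CPM with the non-targeting shRNA and 452, 449.6 and 459 CPM with the MDM2 shRNA label (log2 change -0.94 ± 0.063, adjusted p = 1.1e-06), and at 791, 859 and 854 CPM with DMSO and 434, 458 and 507 CPM with the PROTAC (log2 change -0.84 ± 0.063, adjusted p = 2.36e-06). In MDA-MB-231 it stood at 473, 452 and 461 CPM with the non-targeting shRNA and 532, 487 and 519 CPM with the MDM2 shRNA label (log2 change 0.15 ± 0.046, adjusted p = 0.0367), and at 451, 458 and 480 CPM with DMSO and 559, 511 and 544 CPM with the PROTAC (log2 change 0.22 ± 0.046, adjusted p = 0.00543). Groups did not overlap in any of the 4, but the rise with the MDM2 shRNA label was small and was lost without any 1 of 5 libraries (adjusted p from 0.072 to 0.157), all but MDM2 shRNA replicate 2. DNAJB4, a J-domain protein abundant in muscle, stood in MDA-MB-231 at 20.2, 21.8 and 14.7 CPM with the non-targeting shRNA and 37.8, 40.1 and 39.5 CPM with the MDM2 shRNA label (log2 change 1.05 ± 0.14, adjusted p = 0.000331), and at 17.9, 22.9 and 18.7 CPM with DMSO and 37.4, 34.8 and 30.8 CPM with the PROTAC (log2 change 0.79 ± 0.14, adjusted p = 0.00216). In MDA-MB-436 it stood at 43.9, 47.8 and 39.1 CPM with the non-targeting shRNA and 22.8, 30.0 and 26.4 CPM with the MDM2 shRNA label (log2 change -0.72 ± 0.17, adjusted p = 0.00628), and at 46.9, 42.0 and 55.5 CPM with DMSO and 30.1, 28.8 and 42.8 CPM with the PROTAC (log2 change -0.51 ± 0.17, adjusted p = 0.0366). The last pair overlapped, and its call was lost without any 1 of 4 libraries (DMSO replicates 1 and 3 and PROTAC replicates 1 and 2; adjusted p from 0.0765 to 0.158).

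DNAJA2, a close relative of DNAJA1, rose in MDA-MB-231, where it stood at 93.7, 99.5 and 101 CPM with the non-targeting shRNA and 112, 106 and 114 CPM with the MDM2 shRNA label (log2 change 0.17 ± 0.045, adjusted p = 0.017). In the degrader pair it stood at 95.8, 96.2 and 97.3 CPM with DMSO and 106, 112 and 110.3 CPM with the PROTAC (log2 change 0.18 ± 0.045, adjusted p = 0.0135). Both calls were lost without single libraries: non-targeting replicate 1 or 2 or MDM2 shRNA replicate 1 or 3 (adjusted p from 0.0522 to 0.106), and DMSO or PROTAC replicate 2 (0.0553 and 0.053). The heat-inducible DNAJB1 changed by -0.91 ± 0.1 (adjusted p = 4.56e-05) and -0.93 ± 0.1 (adjusted p = 3.77e-05) in MDA-MB-436, and DNAJB6, which holds back aggregation, by -0.51 ± 0.085 (adjusted p = 0.000835) and -0.71 ± 0.086 (adjusted p = 6.96e-05). Neither was called in MDA-MB-231, where DNAJB6 with the MDM2 shRNA label came close (log2 change -0.30 ± 0.098, adjusted p = 0.0514). DNAJC7, which binds both HSP70 and HSP90, changed by -0.27 ± 0.079 (adjusted p = 0.0217) and -0.27 ± 0.079 (adjusted p = 0.0235) in MDA-MB-436. These calls were lost without any 1 of 4 libraries with the MDM2 shRNA label (replicates 1 and 2 of either group; 0.0554 to 0.0823) and without DMSO or PROTAC replicate 2 (adjusted p = 0.123 and 0.0621).

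Among the HSP70 partners, BAG3 fell in all 4 comparisons and BAG1 rose in MDA-MB-436. BAG3 couples HSP70 to autophagy and is itself heat-inducible. In MDA-MB-436 it stood at 225, 239.7 and 242 CPM with the non-targeting shRNA and 124, 141 and 147 CPM with the MDM2 shRNA label (log2 change -0.78 ± 0.076, adjusted p = 1.74e-05), and at 206, 209 and 224 CPM with DMSO and 129, 124 and 114 CPM with the PROTAC (log2 change -0.80 ± 0.077, adjusted p = 1.38e-05). In MDA-MB-231 it stood at 161, 154 and 154 CPM with the non-targeting shRNA and 121, 138 and 121 CPM with the MDM2 shRNA label (log2 change -0.30 ± 0.057, adjusted p = 0.00286), and at 156, 148 and 149 CPM with DMSO and 114, 112 and 122 CPM with the PROTAC (log2 change -0.38 ± 0.057, adjusted p = 0.000686). Treated libraries were below controls in each pair. BAG1, which links HSP70 to the proteasome, stood in MDA-MB-436 at 74.2, 73.3 and 79.5 CPM with the non-targeting shRNA and 119.8, 111 and 109 CPM with the MDM2 shRNA label (log2 change 0.58 ± 0.079, adjusted p = 0.000186), and at 72.2, 72.5 and 70.9 CPM with DMSO and 112, 108 and 91.6 CPM with the PROTAC (log2 change 0.53 ± 0.079, adjusted p = 0.000331). The groups did not overlap, and in MDA-MB-231 BAG1 was not called (-0.06 and -0.17). ST13 (HIP), which steadies HSP70 on its client, stood in MDA-MB-436 at 404, 388 and 404 CPM with the non-targeting shRNA and 289, 287 and 294 CPM with the MDM2 shRNA label (log2 change -0.46 ± 0.045, adjusted p = 1.75e-05), and at 413, 407 and 409.6 CPM with DMSO and 292, 293 and 304 CPM with the PROTAC (log2 change -0.47 ± 0.045, adjusted p = 1.48e-05). Its treated libraries were all below the controls, and 25.6% of its 50-base words occur in other genes. STUB1 (CHIP), the ubiquitin ligase that tags chaperone clients, fell in MDA-MB-436 with the MDM2 shRNA label (log2 change -0.73 ± 0.11, adjusted p = 0.000416) and was not called with the PROTAC (log2 change -0.20 ± 0.11, adjusted p = 0.211). Exons of STUB1 overlap those of JMJD8 on the other strand over 42.4% of their length, and the strand handling of the counting is not given in the sources used here.

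Both cytosolic HSP90 genes fell in MDA-MB-436. HSP90AB1 (ENSG00000096384, chromosome 6, 44246166 to 44253888, plus strand), the constitutive form, stood at 2716, 2698 and 2826 CPM with the non-targeting shRNA and 1169.9, 1193 and 1173 CPM with the MDM2 shRNA label (log2 change -1.22 ± 0.051, adjusted p = 4.12e-08), and at 2642, 2718 and 2627 CPM with DMSO and 1054, 1182 and 1139 CPM with the PROTAC (log2 change -1.24 ± 0.051, adjusted p = 3.46e-08). Treated levels were 0.429 and 0.423 times the controls. In MDA-MB-231 it stood at 4057, 3873 and 4005 CPM with the non-targeting shRNA and 3428, 3038 and 3392 CPM with the MDM2 shRNA label (log2 change -0.28 ± 0.044, adjusted p = 0.000995), and at 3965, 3741 and 3954 CPM with DMSO and 3469, 3354 and 3400.4 CPM with the PROTAC (log2 change -0.19 ± 0.044, adjusted p = 0.00949). The groups did not overlap there, but the change was a fraction of that in the other line, and with library totals as the sole scaling the second call was lost (adjusted p = 0.0918). HSP90AA1, the inducible form, stood in MDA-MB-436 at 2883, 2795 and 2952 CPM with the non-targeting shRNA and 1018, 1392 and 1060.2 CPM with the MDM2 shRNA label (log2 change -1.31 ± 0.17, adjusted p = 0.000116), and at 2071, 2175 and 1894 CPM with DMSO and 818, 1349 and 1235 CPM with the PROTAC (log2 change -0.85 ± 0.17, adjusted p = 0.002). In MDA-MB-231 HSP90AA1 was not called (-0.07 and 0.03), and its libraries fell at separate levels within each group: 3039, 2041 and 3005 CPM with the non-targeting shRNA and 2113, 2571 and 3028 CPM with the MDM2 shRNA label, and 2040, 2995 and 3179 CPM with DMSO and 2194, 3104 and 3075 CPM with the PROTAC. A single library of each group lay between 2040 and 2194 CPM and the others between 2571 and 3179 CPM. Of 50-base words, 16.6% of HSP90AB1 and 11.3% of HSP90AA1 occur in other genes, most of them in the pseudogenes HSP90AB3P and HSP90AA2P.

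Of the 7 HSP90 partners, 5 fell in both MDA-MB-436 comparisons. AHSA1, the activator of the HSP90 ATPase, changed by -1.12 ± 0.093 (adjusted p = 5.62e-06) and -0.93 ± 0.093 (adjusted p = 1.83e-05), and STIP1 (HOP), which hands clients from HSP70 to HSP90, by -0.89 ± 0.061 (adjusted p = 1.24e-06) and -0.97 ± 0.061 (adjusted p = 7.01e-07). For CHORDC1, an HSP90-binding protein, the changes were -0.68 ± 0.1 (adjusted p = 0.000407) and -0.81 ± 0.1 (adjusted p = 0.000106). FKBP4, the immunophilin of steroid receptor complexes, stood at 752, 769 and 809 CPM with the non-targeting shRNA and 501, 483 and 503 CPM with the MDM2 shRNA label (log2 change -0.65 ± 0.057, adjusted p = 7.61e-06), and at 714, 739 and 712 CPM with DMSO and 467, 488 and 430.2 CPM with the PROTAC (log2 change -0.64 ± 0.057, adjusted p = 7.32e-06). Groups did not overlap for these 4 genes. UNC45A, which helps myosin fold, changed by -0.27 ± 0.091 (adjusted p = 0.044) and -0.33 ± 0.091 (adjusted p = 0.0151). The first of these calls was lost on leaving out any 1 of the 6 libraries (adjusted p from 0.0691 to 0.162), and the other without DMSO replicate 3 (0.0742). PTGES3 (p23) fell with the MDM2 shRNA label (log2 change -0.86 ± 0.26, adjusted p = 0.0273), standing at 355, 226 and 228 CPM with the non-targeting shRNA and 113, 209 and 123 CPM with the MDM2 shRNA label. The groups did not overlap, but single libraries stood high or low in each, and the call was lost without non-targeting replicate 1 or treated replicate 1 or 3 (adjusted p from 0.0979 to 0.122). With the PROTAC it was not called (log2 change -0.34 ± 0.26, adjusted p = 0.368). CDC37, which brings kinases to HSP90, was called in none of the comparisons, with changes from 0.05 to 0.18. In MDA-MB-231 STIP1 was the sole HSP90 partner called. It stood at 500.5, 464 and 496 CPM with the non-targeting shRNA and 449, 406 and 437 CPM with the MDM2 shRNA label (log2 change -0.18 ± 0.049, adjusted p = 0.0238), and at 485, 453 and 466 CPM with DMSO and 458, 427 and 454 CPM with the PROTAC (log2 change -0.07 ± 0.049, adjusted p = 0.379). The first of these was lost without non-targeting replicate 1 or 3 or treated replicate 2 (adjusted p from 0.0614 to 0.0788).

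The small heat-shock proteins, which hold unfolded clients without using ATP, went in opposite directions. HSPB8 (ENSG00000152137, chromosome 12, 119178642 to 119221131, plus strand), which works with BAG3 in chaperone-assisted autophagy, rose in all 4 comparisons. Its MDA-MB-436 libraries stood at 12.4, 13.0 and 15.9 CPM with the non-targeting shRNA and 59.8, 62.9 and 65.0 CPM with the MDM2 shRNA label, a rise to 4.54 times the control (log2 change 2.18 ± 0.11, adjusted p = 1.29e-07). In the degrader pair they stood at 14.8, 15.6 and 14.5 CPM with DMSO and 61.3, 60.9 and 52.2 CPM with the PROTAC (log2 change 1.96 ± 0.11, adjusted p = 2.53e-07). In MDA-MB-231, where it is scarce, it stood at 0.516, 0.298 and 0.699 CPM with the non-targeting shRNA and 2.26, 2.29 and 3.19 CPM with the MDM2 shRNA label (log2 change 2.35 ± 0.29, adjusted p = 0.000176), and at 0.957, 0.825 and 0.791 CPM with DMSO and 2.67, 2.52 and 3.65 CPM with the PROTAC (log2 change 1.78 ± 0.28, adjusted p = 0.00102). Treated libraries lay above controls in every pair, and the MDA-MB-231 control groups held 117 and 179 counts in all. HSPB1 (HSP27) fell in MDA-MB-436, where it stood at 587, 576 and 616 CPM with the non-targeting shRNA and 333, 304 and 302 CPM with the MDM2 shRNA label (log2 change -0.92 ± 0.15, adjusted p = 0.000566). In the other pair it stood at 439.6, 476 and 445 CPM with DMSO, and PROTAC replicates 2 and 3 stood at 297 and 263 CPM while replicate 1 lay just below the lowest DMSO value (log2 change -0.45 ± 0.15, adjusted p = 0.0342). That PROTAC call was lost without any 1 of 5 libraries (each DMSO replicate and PROTAC replicates 2 and 3; adjusted p from 0.0774 to 0.118). HSPB1 was not called in MDA-MB-231 (0.18 and -0.01). CRYAB (alpha-B-crystallin) was too scarce to test, with 0 to 37 counts per group.

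Of the 5 mitochondrial chaperones, 4 fell in both MDA-MB-436 comparisons and none was called in MDA-MB-231. HSPD1 and HSPE1 encode HSP60 and its lid and lie head to head on chromosome 2 (197486581 to 197516737 on the minus strand and 197499994 to 197503457 on the plus strand). HSPD1 stood at 2078, 2094 and 2128 CPM with the non-targeting shRNA and 901, 896 and 899 CPM with the MDM2 shRNA label (log2 change -1.22 ± 0.045, adjusted p = 1.65e-08), and at 2026, 2121 and 2100.1 CPM with DMSO and 856, 914 and 896 CPM with the PROTAC (log2 change -1.23 ± 0.045, adjusted p = 1.5e-08). HSPE1 stood at 298, 287 and 295 CPM with the non-targeting shRNA and 137, 137 and 139.7 CPM with the MDM2 shRNA label (log2 change -1.09 ± 0.059, adjusted p = 2.63e-07), and at 264, 264 and 260.5 CPM with DMSO and 136, 128 and 149 CPM with the PROTAC (log2 change -0.94 ± 0.059, adjusted p = 7.01e-07). All treated libraries were below all controls for both genes. In MDA-MB-231 the changes were -0.05 and 0.04 for HSPD1 and -0.16 and -0.17 for HSPE1, none of them called. Since 23.9% of HSPE1 exon length overlaps other genes, HSPD1 and a read-through gene among them, its counts are uncertain. The share of counts affected is not known, and HSPD1 had a median count of 48738 against 7910 for HSPE1. Other genes called lower in MDA-MB-436 have overlapped exons too, among them TRAP1 (30.5% of exon length), TCP1 (11.1%), DNAJC7 (9.4%) and DNAJB1 (5.7%). The falls of HSPA9 (mortalin, the mitochondrial HSP70) were small, -0.21 ± 0.049 (adjusted p = 0.00576) and -0.24 ± 0.049 (adjusted p = 0.00254), as were those of TRAP1, the mitochondrial HSP90, -0.33 ± 0.086 (adjusted p = 0.0125) and -0.36 ± 0.086 (adjusted p = 0.00723). The first TRAP1 call was lost without non-targeting replicate 3 or treated replicate 1 (adjusted p = 0.0565 and 0.0558). DNAJA3, a mitochondrial J-domain protein, was not called. It stood at 66.7, 68.8 and 70.3 CPM with the non-targeting shRNA and 118, 82.4 and 76.8 CPM with the MDM2 shRNA label, and at 132, 75.3 and 65.4 CPM with DMSO and 70.3, 82.5 and 74.9 CPM with the PROTAC. MDM2 shRNA replicate 1 and DMSO replicate 1 lay above all others.

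The 8 subunits of the TRiC/CCT ring fell unevenly in MDA-MB-436: 7 with the MDM2 shRNA label and 6 with the PROTAC. CCT4 and CCT6A fell most. CCT4 stood at 798, 774 and 824 CPM with the non-targeting shRNA and 367, 378 and 373 CPM with the MDM2 shRNA label (log2 change -1.10 ± 0.062, adjusted p = 3.25e-07), and at 829, 854 and 810.2 CPM with DMSO and 417, 380 and 354 CPM with the PROTAC (log2 change -1.11 ± 0.062, adjusted p = 2.8e-07). CCT6A stood at 972, 956 and 997 CPM with the non-targeting shRNA and 440.2, 502 and 473 CPM with the MDM2 shRNA label (log2 change -1.05 ± 0.057, adjusted p = 2.56e-07), and at 975, 998 and 990.1 CPM with DMSO and 434, 464 and 463 CPM with the PROTAC (log2 change -1.12 ± 0.057, adjusted p = 1.36e-07). For both genes the treated libraries were all below the controls. Changes with the MDM2 shRNA label and the PROTAC were -0.72 and -0.77 for CCT5, -0.64 and -0.56 for CCT3, -0.46 and -0.37 for TCP1, and -0.29 and -0.24 for CCT2, all called, with adjusted p at most 0.00258. CCT7 was called with the MDM2 shRNA label (log2 change -0.27 ± 0.077, adjusted p = 0.0187) but not with the PROTAC (log2 change -0.19 ± 0.077, adjusted p = 0.0768), and the first call was lost without non-targeting replicate 3 or treated replicate 2 or 3 (adjusted p from 0.0608 to 0.087). CCT8 was called in neither (-0.11 and -0.11). In MDA-MB-231 no subunit was called, and the 16 changes ran from -0.13 to 0.14. RNA levels of the subunits per kilobase of exon differed: the highest was 2.95 to 3.21 times the lowest in MDA-MB-231 groups and 3.25 to 3.91 times in MDA-MB-436 groups, with TCP1 lowest in all 8 groups. The length counts every annotated exon of a gene, used or not. It ran from 2830 bases for CCT4 to 5839 for CCT5, with TCP1 at 4929, so these ratios between subunits depend on the annotation. In MDA-MB-436 the highest was CCT3 with the non-targeting shRNA (281 CPM per kilobase) and CCT4 with DMSO (285 CPM per kilobase), and CCT7 in both treated groups (199 and 184 CPM per kilobase).

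**Figure D4:**
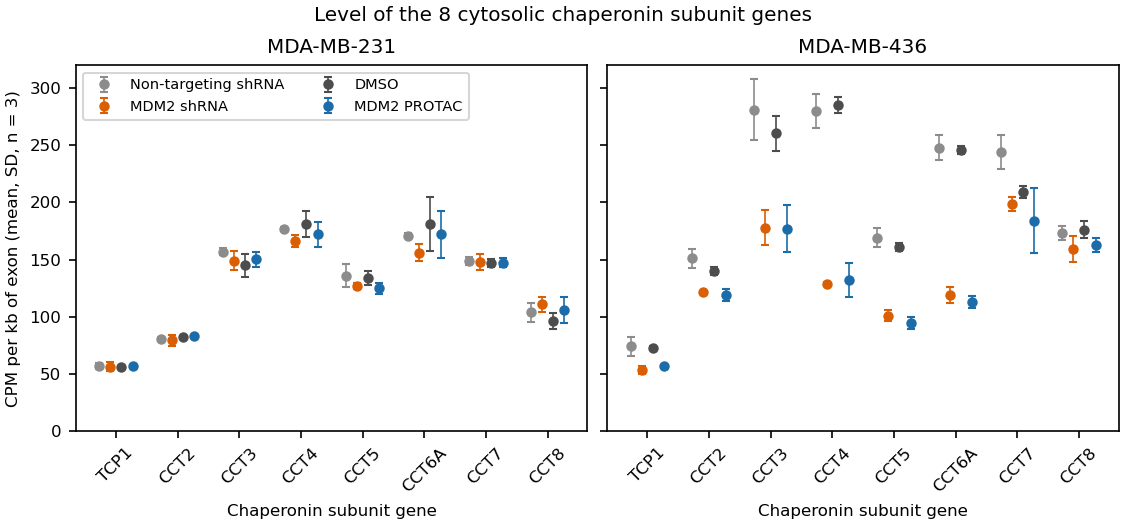
Mean level of the 8 chaperonin subunits in each of the 8 groups, in CPM per kilobase of exon; bars are ± 1 SD over 3 libraries. By this measure, which divides by all annotated exons of a gene, TCP1 is lowest in every group. The 4 MDA-MB-231 groups nearly coincide, and in MDA-MB-436 the treated groups lie lowest relative to their controls at CCT4 and CCT6A.

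The PROTAC and shRNA effects were compared directly, each against its own control. No chaperone differed between them by edgeR's quasi-likelihood test in MDA-MB-231 or MDA-MB-436, where 0.00484% and 0.00441% of all genes did. At an unadjusted p under 0.05 there were 1 and 2 of 43 chaperones, and none was called by DESeq2. The share of all genes at that unadjusted threshold is not reported here, so these counts are not read as differences between the agents. The 1 was HSPH1 in MDA-MB-231, with a difference (PROTAC minus shRNA) of 0.15 on the log2 scale (95% interval 0.04 to 0.26, adjusted p = 0.974). The 2 were STUB1 (0.54, 0.23 to 0.84) and HSPB1 (0.47, 0.07 to 0.88) in MDA-MB-436, both with adjusted p = 0.905. For genes measured closely the interval was narrow: -0.13 to 0.12 for HSPD1 and -0.25 to 0.29 for HSPA8 in MDA-MB-436. For PTGES3 it was wide, -0.20 to 1.25. These genes were named after their values were seen. A call with 1 agent and not the other, as for STUB1, PTGES3 and CCT7, is thus not shown to be a difference between the agents.

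The lines were compared by testing the difference between their effects over all 24 libraries. With the MDM2 shRNA label, 31 of 43 chaperones differed, where 19.7% of all 24719 genes did. The effect was lower in MDA-MB-436 for 30 and higher for 1, against 9.77% and 9.94% of all genes. For the PROTAC 31 differed, where 22.3% of all genes did, and the counts were again 30 and 1, against 10.5% and 11.8%. The median difference was -0.63 and -0.48, against 0.008 and 0.071 over all genes. In both tests 28 chaperones were called, 27 lower and BAG1 higher. The share of all genes called in both tests is not reported here. HSPA1A had a difference of -1.63 ± 0.088 (adjusted p = 1.31e-10) with the MDM2 shRNA label and -1.62 ± 0.088 (adjusted p = 1.52e-10) with the PROTAC. For HSPA1B the differences were -1.51 ± 0.096 (adjusted p = 1.4e-09) and -1.55 ± 0.096 (adjusted p = 8.87e-10), and for HSPD1 -1.19 ± 0.079 (adjusted p = 2.09e-09) and -1.27 ± 0.079 (adjusted p = 8.87e-10). DNAJA1 differed by -1.11 ± 0.075 (adjusted p = 3.3e-09) and -1.06 ± 0.075 (adjusted p = 5.4e-09), and HSP90AB1 by -0.96 ± 0.074 (adjusted p = 1.6e-08) and -1.05 ± 0.074 (adjusted p = 4.71e-09). DNAJB4, which moved in opposite directions in the lines, differed by -1.79 ± 0.22 (adjusted p = 5.77e-06) and -1.30 ± 0.22 (adjusted p = 0.000165). BAG1 differed by 0.62 ± 0.17 (adjusted p = 0.0118) and 0.71 ± 0.17 (adjusted p = 0.00434). HSPB8 was not called in either test (-0.74 to 0.36 and -0.37 to 0.74 as 95% intervals), nor was HSPA4L (-0.58 to 0.42 and -0.49 to 0.50). Without single libraries, the PROTAC differences of DNAJC7, ST13 and HSP90AA1 missed the threshold, and with the MDM2 shRNA label those of HSF2 and UNC45A. DNAJC7 was lost without MDA-MB-231 DMSO replicate 3, MDA-MB-231 PROTAC replicate 2 or MDA-MB-436 DMSO replicate 2 (adjusted p from 0.057 to 0.0681). ST13 was lost without any MDA-MB-436 DMSO replicate, and without DMSO replicate 1 or 2 or PROTAC replicate 1 or 3 of MDA-MB-231 (adjusted p from 0.0501 to 0.0784). For HSF2 the libraries were non-targeting replicates 1 and 3 and MDM2 shRNA replicate 1 of MDA-MB-231, and non-targeting replicates 2 and 3 and MDM2 shRNA replicate 1 of MDA-MB-436 (adjusted p from 0.0607 to 0.0843). For UNC45A they were all 12 but MDM2 shRNA replicate 2 of MDA-MB-231 (adjusted p from 0.0521 to 0.114). The HSP90AA1 call was lost without any 1 of 6 libraries (DMSO replicate 1 and PROTAC replicates 2 and 3 of MDA-MB-231, and DMSO replicates 1 and 2 and PROTAC replicate 1 of MDA-MB-436; adjusted p from 0.0559 to 0.0916).

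Most chaperones started from a higher level in MDA-MB-436. Over the control libraries of both kinds, 37 of 43 differed, where 66.8% of all genes did. Of these 30 were higher in MDA-MB-436 and 7 lower, where 35.9% and 30.9% of all genes were, and the median difference was 0.49 on the log2 scale. The median over all genes was 0.105. The control libraries used here also enter the treatment comparisons. On a scale common to all 24 libraries, HSPD1 stood with the non-targeting shRNA at 555 ± 29 CPM (SD, n = 3) in MDA-MB-231 and 2085 ± 74 CPM in MDA-MB-436 (difference over both control groups 1.91 ± 0.04, adjusted p = 5.29e-19). HSPE1 stood at 88.4 ± 2.1 CPM and 291 ± 9.6 CPM (difference 1.58 ± 0.04, adjusted p = 7.3e-18). FKBP4 stood at 233 ± 5.2 CPM and 771 ± 47 CPM (difference 1.68 ± 0.045, adjusted p = 1.81e-17), and ST13 at 148 ± 3.6 CPM and 396 ± 16 CPM (difference 1.42 ± 0.042, adjusted p = 9.42e-17). The gap was widest for HSPB8 (4.39 ± 0.16). Lower in MDA-MB-436 were HSPA14, HSPA4, HSPA4L, DNAJB1, DNAJC7, HSP90AB1 and CDC37, with HSPA4L (-1.86 ± 0.13) and HSP90AB1 (-0.60 ± 0.037) among them. Per kilobase of exon, HSP90AB1 ranked highest of the chaperones in the non-targeting groups of both lines, at 1362 CPM per kilobase in MDA-MB-231 and 915 CPM per kilobase in MDA-MB-436. It was followed in MDA-MB-231 by HSP90AA1 (524) and HSPA8 (408), and in MDA-MB-436 by HSP90AA1 (544), HSPD1 (491) and HSPA8 (401). The length counts every annotated exon of a gene, used or not (2980 bases for HSP90AB1, 5248 for HSP90AA1), so this ranking depends on the annotation. By counts alone, HSP90AA1 was the largest in the MDA-MB-436 non-targeting group.

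A second list of 77 further genes of the same pathway was counted in the same way. Of these, 76 matched a gene in the files. In MDA-MB-436, 9 of 74 tested rose (12.2%) and 22 fell (29.7%) with the MDM2 shRNA label, where 16% of all genes rose and 14.4% fell. For the PROTAC, 11 rose (14.9%) and 20 fell (27.0%), against 17.3% and 15.1% of all genes. In MDA-MB-231, 10 of 73 rose (13.7%) and 6 fell (8.22%) with the MDM2 shRNA label, and 10 rose (13.7%) and 8 fell (11.0%) with the PROTAC. Those shares were near the shares over all genes, 11.1% and 11.6% with the MDM2 shRNA label and 11.1% and 11.5% with the PROTAC. The smallest adjusted p in MDA-MB-436 belonged to FKBP5, a glucocorticoid-induced HSP90 partner, which rose by 1.44 ± 0.082 (adjusted p = 3.34e-07) and 1.40 ± 0.082 (adjusted p = 4.03e-07). It also rose in MDA-MB-231, by 0.46 ± 0.055 (adjusted p = 0.000119) and 0.62 ± 0.055 (adjusted p = 1.43e-05). HTRA2, a protease of the mitochondrial intermembrane space, rose in MDA-MB-436 by 0.99 ± 0.09 (adjusted p = 9.61e-06) and 1.10 ± 0.09 (adjusted p = 4.41e-06). The J-domain gene DNAJB2 rose there by 0.91 ± 0.11 (adjusted p = 7e-05) and 0.92 ± 0.11 (adjusted p = 6.36e-05), while BAG2, an inhibitor of CHIP, changed by -0.97 ± 0.12 (adjusted p = 7.84e-05) and -1.09 ± 0.12 (adjusted p = 3.4e-05). The ubiquitin gene UBB changed by -0.46 ± 0.054 (adjusted p = 6.1e-05) and -0.24 ± 0.054 (adjusted p = 0.00546). In MDA-MB-231 the lead genes were HSPB11 (0.72 ± 0.07 and 0.61 ± 0.07, adjusted p = 3.14e-05 and 9.52e-05), DNAJC15 (-0.59 ± 0.081 and -0.55 ± 0.081, adjusted p = 0.000333 and 0.000612), DNAJC5 (-0.30 ± 0.035 and -0.32 ± 0.035, adjusted p = 0.000111 and 7e-05), the tubulin cofactor TBCD (-0.50 ± 0.069 and -0.67 ± 0.07, adjusted p = 0.000392 and 4.68e-05) and the heme oxygenase HMOX1 (0.68 ± 0.094 and 0.87 ± 0.094, adjusted p = 0.00034 and 6.59e-05). HMOX1, an antioxidant enzyme induced by heme and oxidants, fell in MDA-MB-436 (-0.62 ± 0.15 and -0.55 ± 0.15, adjusted p = 0.00881 and 0.0152). Whether the lines differed in these further genes is not reported here.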

How the data were processed

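Raw counts per gene were deposited by the authors, 1 file per library, for 24 libraries with 33.4 M to 174.7 M counts (M is 1000000). Total RNA was isolated with TRIzol, and libraries were made with a NEBNext Ultra II kit and sequenced on an Illumina HiSeq instrument, per the labels' protocols. Adapter trimming with cutadapt 2.4, alignment with HISAT2 to GRCh38, StringTie and edgeR are named in the submitters' processing notes; the strand setting and the treatment of reads that map to several genes are not given in the sources used here. Low counts were more frequent at 4 than at the neighbouring values (1.20 to 1.64 times), a pattern whose cause was not tested.

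Counts were filtered (filterByExpr), scaled by TMM and fitted with edgeR 4.0.16 (quasi-likelihood, 1 mean per group, R 4.3.3): 12 libraries per line for the treatment comparisons, with 20675 and 22663 genes, and 24 libraries for differences between lines, with 24719 genes. P-values were adjusted over all genes by Benjamini-Hochberg, with a threshold of 0.05. Intervals of 95% take the estimate and its SE as normal. The precision is set by 3 libraries per group. The script was tested on simulated data. Same-numbered libraries were not treated as pairs. Their deviations correlated at -0.193 to 0.129, which does not show whether they were handled together. Alternatives were RLE scaling, no scaling beyond totals, no filter, DESeq2 1.42.0, a replicate block, counts divided by 4, HSPA1A and HSPA1B summed, the 6 libraries of a comparison alone, and each library left out. Comparisons of control with control and treated with treated groups were added after seeing the data.

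The 44 genes and all lists were chosen with earlier results of these data known. Values in every library are given for up to 6 genes that rose and 6 that fell per treatment comparison by adjusted p, for those called in all 4 and for up to 4 per test of a difference, and other genes are given with the reason beside them or by role. Gene positions, exon overlaps and the shared 50-base words come from GENCODE 29, and promoters from RefSeq. TBCE, 1 of the 77 further pathway genes, was not matched.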

Additional observations from a re-analysis of the deposited data

Results flagged for a closer look

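The response of the chaperone genes differed between the lines by a test of the difference itself, the effect in MDA-MB-436 minus that in MDA-MB-231 in 1 edgeR model over all 24 libraries. With the MDM2 shRNA label 31 of 43 genes passed, where 19.7% of all 24719 genes did, and with the PROTAC also 31, where 22.3% did. Among single genes, HSPA1A differed by -1.63 and -1.62 on the log2 scale with the MDM2 shRNA label and the PROTAC, HSPA1B by -1.51 and -1.55, and HSPD1 by -1.19 and -1.27. These genes were not called in MDA-MB-231 and fell in MDA-MB-436. DNAJA1 differed by -1.11 with the MDM2 shRNA label and HSP90AB1 by -1.05 with the PROTAC. DNAJB4, which rose in MDA-MB-231 and fell in MDA-MB-436, differed by -1.79 and -1.30. BAG1 was the single chaperone called with a higher effect in MDA-MB-436, by 0.62 and 0.71. Each group has 3 libraries, too few for a test of single values as outliers.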

How the results depend on the processing

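No called change reversed direction under any alternative run, and changes that were not called were not checked for this. Leaving out 1 library at a time gave 6 to 11 called chaperones in MDA-MB-231 with the MDM2 shRNA label (6 without non-targeting replicate 1, against 11) and 8 to 11 with the PROTAC. In MDA-MB-436 it gave 32 to 34 and 29 to 33. For the differences between lines it gave 29 to 32 and 29 to 31, and for the control levels 37 to 39. The effects of the agents differed in 0 chaperones in every such run. Across the other settings the counts ran from 8 to 13 and 10 to 14 in MDA-MB-231, from 30 to 37 and 26 to 33 in MDA-MB-436, from 26 to 32 and 29 to 32 for the line differences and from 35 to 38 for the control levels. With replicate number as a block, which is no pairing stated by the labels, 7 rose and 4 fell, and 7 rose and 4 fell, in MDA-MB-231 (MDM2 shRNA label and PROTAC), 3 rose and 31 fell, and 3 rose and 30 fell, in MDA-MB-436. The block gave 1 higher and 29 lower, and 1 higher and 30 lower, for the line differences, 28 and 7 for the control levels, and 0 for the agents. Of all 20675 genes in MDA-MB-231, 2068 rose and 2206 fell with the block, and 2107 rose and 2195 fell. Of all 22663 in MDA-MB-436, 3433 rose and 3097 fell, and 3615 rose and 3262 fell. Of 24719 genes, 2320 were higher and 2300 lower, and 2686 and 2506, for the line differences, and 7177 and 6489 for the control levels. Calls that held without any 1 library were 6 of 11, 8 of 10, 31 of 36 and 28 of 33 in the treatment comparisons and 29 of 31 and 28 of 31 in the line differences. Depth was not the limit for most of these genes, but HSPB8 in MDA-MB-231 controls and CRYAB rest on few counts.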
